A study of Mus musculus with 4 samples.

Results

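The genes of the DNA replication machinery were followed through 4 RNA-seq libraries of mouse blood progenitor cultures. The genes were chosen by name, as the rows of the deposited table whose symbol belongs to a list of 44 replication genes, and all 44 were among the 14323 genes of the table. Copying the genome starts before S phase, when the origin recognition complex (ORC) with Cdc6 and Cdt1 loads rings of the MCM helicase onto origins. Cdc45 and the GINS complex then join the ring and start it, primase and DNA polymerases alpha, delta and epsilon copy the strands, and the sliding clamp Pcna, opened and closed by replication factor C, keeps polymerases on the template. Fast-dividing myeloid progenitors use this machinery heavily, and many of its genes are transcribed under E2F factors as cells enter the cycle.

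MPP2 cells, multipotent progenitors biased toward the megakaryocyte and red cell lines, and short-term haematopoietic stem cells (ST-HSCs) came from C57BL/6 mice. The 4 groups were MPP2 cultures with 4-hydroxytamoxifen (4OHT, 0.05 µM), MPP2 cultures with ethanol (EtOH), ST-HSC cultures with 4OHT and ST-HSC cultures with EtOH, with 1 library each. 4OHT, the active form of tamoxifen, was given to switch on MLL-ENL, a leukaemia fusion protein, and EtOH was its solvent and control. In every group 100 cells had been seeded in 1% methylcellulose that held GM-CSF, IL-3, SCF and IL-6, and RNA was taken from the colonies after 5 to 7 days. The labels name neither the promoter nor the allele behind the fusion, and do not say how many mice were used or pooled.

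Recovered depth was between 12907412 and 14317891 reads per library, and 1 read was worth 0.0695 to 0.0802 normalized counts, the unit of all levels given here. All 44 genes had a mean of at least 1 normalized count and passed the filter that kept 11370 genes. Precursor ribosomal RNA took 7.39%, 4.82%, 7.10% and 6.75% of reads in the 4 groups as listed. Neutrophil markers summed to 43350, 44403, 25294 and 33543 normalized counts over 11 measured genes. Of the 11, Elane, Mpo, Prtn3 and Ctsg were lower in MPP2 than in ST-HSC cultures under both treatments, and the other 7 higher. Mpo, for example, had 2484, 1971, 4357 and 4549. Stem and progenitor markers summed to 182, 179, 210.1 and 139 over 10 genes. Of these Kit, the receptor for SCF, had 90.5, 84.1, 92.9 and 76.4, and Slamf1, a surface mark of MPP2 cells that ST-HSCs lack, 2.49 and 3.17 in MPP2 cultures with 4OHT and EtOH and 0 in both ST-HSC libraries. Kmt2a, the gene that gives the front part of the fusion, stood at 84.2, 91.1, 72.1 and 80.3 normalized counts, and its partner Mllt1 at 59.0, 50.9, 62.7 and 60.1. A count per symbol does not separate the fusion from its parent genes, so induction was not checked.

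Replication genes as a group differed more between the cell types than between treatments, as did genes in general. Of 11370 genes tested, 1216 were at least 1.5-fold lower and 1548 as much higher in MPP2 than in ST-HSC cultures with 4OHT. With EtOH these were 629 and 1428. For 4OHT against EtOH they were 693 and 531 in MPP2, and 329 and 600 in ST-HSC cultures. Summed over the 44 genes, levels were 4676 normalized counts in MPP2 cultures with 4OHT, 4711 in MPP2 cultures with EtOH, 5400 in ST-HSC cultures with 4OHT and 5738 in ST-HSC cultures with EtOH. The MPP2 cultures thus lay below the ST-HSC cultures under either treatment, and 4OHT lay a little below EtOH in either cell type. The median log2 difference, taken on values plus 0.5, between MPP2 and ST-HSC cultures was -0.23 with 4OHT and -0.28 with EtOH, against -0.02 and -0.04 over all genes tested. The 4OHT minus EtOH medians were -0.05 in MPP2 and -0.09 in ST-HSC cultures, against -0.00 over all genes in each. With bulk RNA, fewer cells of a type and less RNA per cell cannot be told apart.

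Between cell types, 38 of 44 genes were lower in MPP2 than in ST-HSC cultures under both treatments, where 42.2% of all genes tested were. Under 4OHT alone 40 of 44 were lower (51.8% of all genes), and under EtOH alone 41 (54.0%). Tyms was the only one of the 44 higher in MPP2 cultures under both treatments (36.4% of all genes), and Orc4, Orc5, Gins3, Pole and Lig1 had opposite signs (21.4%). Orc2, Gins2 and Pold2 were at least 1.5-fold lower in MPP2 cultures with 4OHT (10.7% of all genes), and Cdc6, Gins1, Gins2 and Pold2 with EtOH (5.53%). With 1 library a group, a test exists only for the difference shared by both pairs of libraries.

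In that test (limma with 1 term for the cell type and 1 for the treatment, Benjamini-Hochberg adjusted over all genes), 604 genes (5.31%) were lower and 1123 (9.88%) higher in MPP2 cultures. With the GC trend removed the split was 215 lower and 783 higher. Gins2 and Pold2 were the 2 replication genes called, both lower, and with the GC trend removed neither was called (adjusted p 0.051 and 0.052). edgeR on recovered reads called 11 of 44 lower (14.0% of all genes were), a share above its background, while the limma share of 2 in 44 is close to its own. The 11 were Orc2, Cdc6, Gins1, Gins2, Cdc45, Pold2, Pole2, Rfc3, Rfc5, Rpa2 and Fen1. limma with trend and robust options called 14 lower (16.2% of all genes), limma on genes with a mean of at least 5 called 9 (14.7%), and DESeq2 called Cdc6 and Pold2 (3.98%). The number of replication genes called lower thus depended on the setting and ran from 0 to 14, with 0 under a pseudocount of 0.1, no filter or the GC trend removed. No replication gene was called higher by limma, by edgeR (16.5% of all genes) or by DESeq2, and 0 replication genes were higher with an unadjusted limma p below 0.05 (19.1% of all genes).

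**Figure D1:**
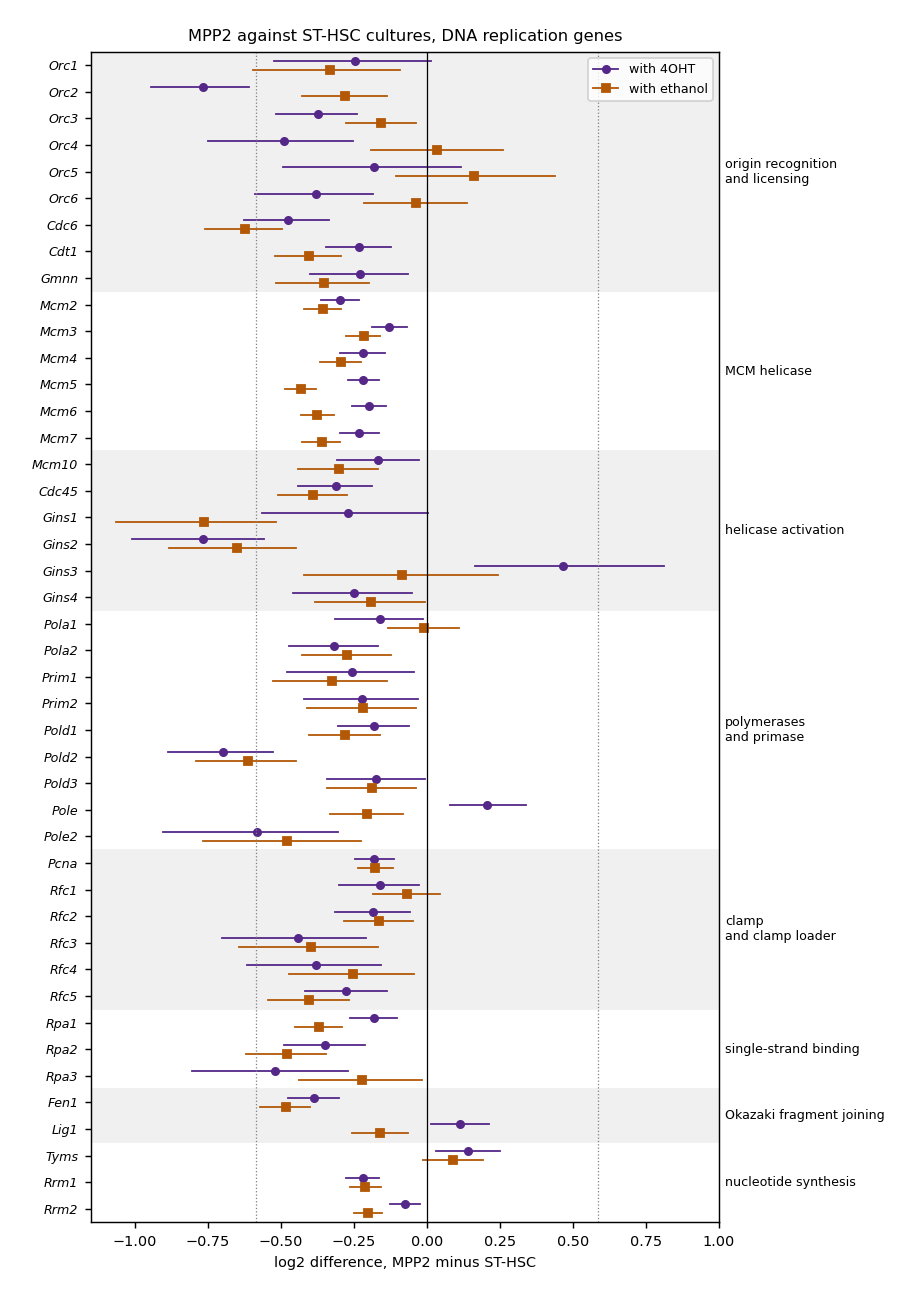
Log2 difference of each replication gene between MPP2 and ST-HSC cultures, with 4OHT (purple circles) and with ethanol (orange squares), 1 library a group. Bars are exact 95% counting intervals, dotted lines mark 1.5-fold, and most points lie left of 0, with Tyms, Gins3, Pole and Lig1 right of it under 4OHT.

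With 4OHT, 23 of 44 genes were lower than with EtOH in both cell types (31.4% of all genes), 9 were higher in both (30.4%) and 12 had opposite signs (38.1%). The 9 were Cdt1, Mcm2, Mcm5, Pola2, Pold1, Rfc3, Rfc5, Rpa2 and Fen1. With the GC trend removed, Mcm2, Pola2, Pold1 and Rfc3 lay below EtOH in MPP2 cultures (log2 -0.07, -0.05, -0.06 and -0.02). The rest of the 9 stayed above it there. In MPP2 cultures 26 of 44 were lower with 4OHT (50.2% of all genes) and in ST-HSC cultures 32 (50.6%). Rpa3 alone passed 1.5-fold, downward in MPP2 cultures (6.09% of all genes did), and none did so in ST-HSC cultures (2.89%). With 1 library a group, no test of 4OHT within a cell type was made.

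For the 4OHT difference shared by both cell types, limma called 0 of 44 replication genes, where it called 1 of 11370 genes lower (0.0088%) and 5 higher (0.044%). On simulated libraries of this size limma missed most 1.5-fold differences, so the 0 does not show that these genes were alike. Unadjusted p was below 0.05 for 3 replication genes, all lower (7.19% of all genes) and none higher (7.02%). These were Pola1, Rfc1 and Rpa3. edgeR called Pola1 lower (1.86% of all genes) and none higher (2.47%), limma with trend and robust options called Pola1 and Rfc1 lower (1.93%), and DESeq2 called 0 (0.361%). The same 3 genes were the only ones at least 1.25-fold lower in both cell types (4.57% of all genes), a threshold chosen after values were seen.

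**Figure D2:**
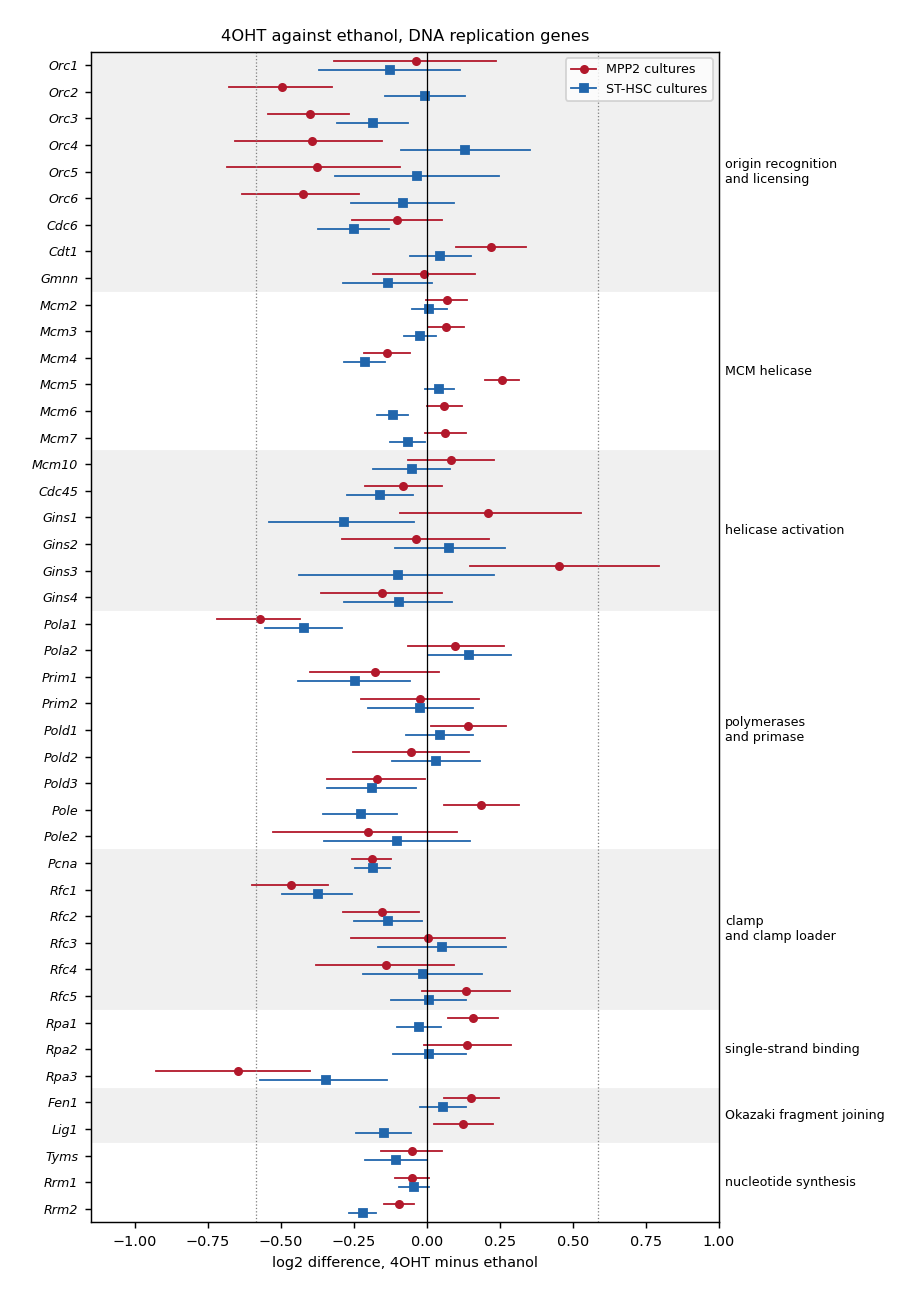
Log2 difference of each replication gene between 4OHT and ethanol, in MPP2 (red circles) and ST-HSC cultures (blue squares), 1 library a group. Bars are exact 95% counting intervals and dotted lines mark 1.5-fold. Pola1, Rfc1 and Rpa3 lie left of 0 in both cell types, and Orc2 to Orc6 lie left of 0 in MPP2 cultures.

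Promoters were read because many of these genes are textbook E2F targets and most of the 44 lay lower together in MPP2 cultures. RefSeq promoters (GRCm38.p6, 250 bases before to 50 after the start) were found for 36 of the 44 genes. An E2F octamer (TTTCCCGC, TTTCGCGC, TTTGCCGC or TTTGGCGC on either strand, where overlapping matches count separately) was present in 14 of 36 (38.9%) and in 375 of 8670 promoters of all genes tested (4.33%). The CCAAT box, read on either strand, was in 22 of 36 (61.1%) against 38.8% of all. Stretches of 60 bases around the first octamer are shown for 5 genes described in the following paragraphs, with octamers in capitals. In Mcm5 the capitals join 2 overlapping octamers of opposite strand.

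Orc3 (chr4:34614950-34615009, minus strand): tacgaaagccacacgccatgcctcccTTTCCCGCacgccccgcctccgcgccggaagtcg
Cdc6 (chr11:98907987-98908046, plus strand): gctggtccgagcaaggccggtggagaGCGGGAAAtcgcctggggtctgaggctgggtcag
Mcm5 (chr8:75109330-75109389, plus strand): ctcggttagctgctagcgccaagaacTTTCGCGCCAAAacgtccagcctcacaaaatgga
Gins3 (chr8:95633492-95633551, plus strand): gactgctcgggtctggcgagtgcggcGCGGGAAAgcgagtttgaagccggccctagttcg
Pola1 (chrX:93632260-93632319, minus strand): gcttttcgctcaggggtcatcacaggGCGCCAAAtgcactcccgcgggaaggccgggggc

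Upstream bases, 250 per gene, are shown for Pold2 and Rpa3, of which the first was called lower in MPP2 cultures and the second passed 1.5-fold with 4OHT, and neither of which holds such an octamer. Capitals mark the CCAAT box, here on the opposite strand as ATTGG.

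Pold2 (chr11:5878257-5878506, minus strand): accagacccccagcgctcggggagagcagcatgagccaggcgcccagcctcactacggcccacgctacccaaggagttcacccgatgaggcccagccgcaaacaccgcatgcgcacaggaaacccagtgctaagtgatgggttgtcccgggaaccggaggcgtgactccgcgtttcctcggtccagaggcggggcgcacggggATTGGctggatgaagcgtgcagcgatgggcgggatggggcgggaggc
Rpa3 (chr6:8259142-8259391, minus strand): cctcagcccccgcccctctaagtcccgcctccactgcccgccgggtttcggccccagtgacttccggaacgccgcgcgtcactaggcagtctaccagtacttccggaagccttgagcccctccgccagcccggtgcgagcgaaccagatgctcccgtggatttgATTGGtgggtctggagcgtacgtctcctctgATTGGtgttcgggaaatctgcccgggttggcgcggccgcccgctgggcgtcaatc

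The 14 genes with an octamer had median log2 4OHT minus EtOH differences of 0.03 in MPP2 and -0.10 in ST-HSC cultures, and the 22 without had -0.07 and -0.04. Between cell types the medians were -0.22 with 4OHT and -0.35 with EtOH for genes with an octamer, and -0.29 and -0.26 for those without. A match is only a run of letters in this window and was not tied to binding.

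Among 9 origin recognition and licensing genes, Orc2 to Orc6 lay below EtOH with 4OHT in MPP2 cultures, while Orc1, Cdc6 and Gmnn differed less and Cdt1 lay above. The median of the 9 there was -0.37, and -0.13 with the GC trend removed. Orc2 had 35.3 normalized counts in MPP2 cultures with 4OHT, 49.9 with EtOH, and 60.4 and 60.7 in ST-HSC cultures with 4OHT and with EtOH. MPP2 with 4OHT was lowest, 1.41-fold below its EtOH partner (ratio 0.707, counting interval 0.626 to 0.798), while the ratio in ST-HSC cultures was 0.996 (0.905 to 1.10). MPP2 with EtOH also lay below ST-HSC with EtOH (ratio 0.822, 0.743 to 0.910). Orc2 (GRCm38 chromosome 1, 58462771 to 58505109, minus strand) shares 27.9% of its 31-base words with the overlapping, opposite-strand gene Nif3l1, whose own level was 23.1, 16.9, 25.4 and 20.7. Orc6, another ORC subunit, had 27.7, 37.3, 36.1 and 38.3 normalized counts in MPP2 cultures with 4OHT, MPP2 with EtOH, ST-HSC with 4OHT and ST-HSC with EtOH. Its MPP2 4OHT library was the low one (log2 -0.42 in MPP2, -0.08 in ST-HSC cultures).

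Orc3 had 57.5 and 76.1 normalized counts in MPP2 cultures with 4OHT and EtOH, and 74.7 and 84.9 in ST-HSC cultures. Both 4OHT libraries lay below their partners, at log2 -0.40 and -0.18. Orc4 had 17.7 and 23.5 in MPP2 cultures with 4OHT and EtOH, and 25.1 and 22.9 in ST-HSC cultures, so its 4OHT differences had opposite signs (log2 -0.39 and 0.13). Orc5 (13.1, 17.1, 14.9 and 15.2) completes 5 subunits, Orc2 to Orc6, that were 0.37 to 0.49 lower on the log2 scale in MPP2 cultures with 4OHT, with a median of -0.40. Their median in ST-HSC cultures was -0.03. Orc1, the largest subunit, had 16.3 and 16.7 in MPP2 cultures with 4OHT and EtOH (log2 -0.04). No difference of the 4OHT effects between cell types could be tested with 1 library a group, and this group was noticed after values were seen.

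Orc2 to Orc6 have transcripts of low GC content, 36.8% to 45.1%, and GC content moved with the 4OHT difference. Across the 44 genes the Pearson correlation between GC content and the 4OHT difference was 0.67 in MPP2 and 0.44 in ST-HSC cultures (Spearman 0.71 and 0.45), and across all 11296 genes with a GC value 0.38 and 0.12. Genes within a library share its preparation and are not independent, so no p-value is given. The 11 genes of lowest GC content had a median of -0.39 in MPP2 cultures, with 11 of 11 lower, and the 11 of highest GC content 0.10, with 2 of 11 lower. All genes with a GC value, split into 20 bins, also moved with GC content in MPP2 cultures. Bin medians were -0.39 at 38.8% GC, -0.15 at 44.8%, 0.08 at 52.5% and 0.20 at 61.1%. With the median of 20 GC bins removed, Orc2 to Orc6 had a median of -0.21 in MPP2 and 0.03 in ST-HSC cultures, and Orc4 reached -0.00 in MPP2 cultures.

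**Figure D3:**
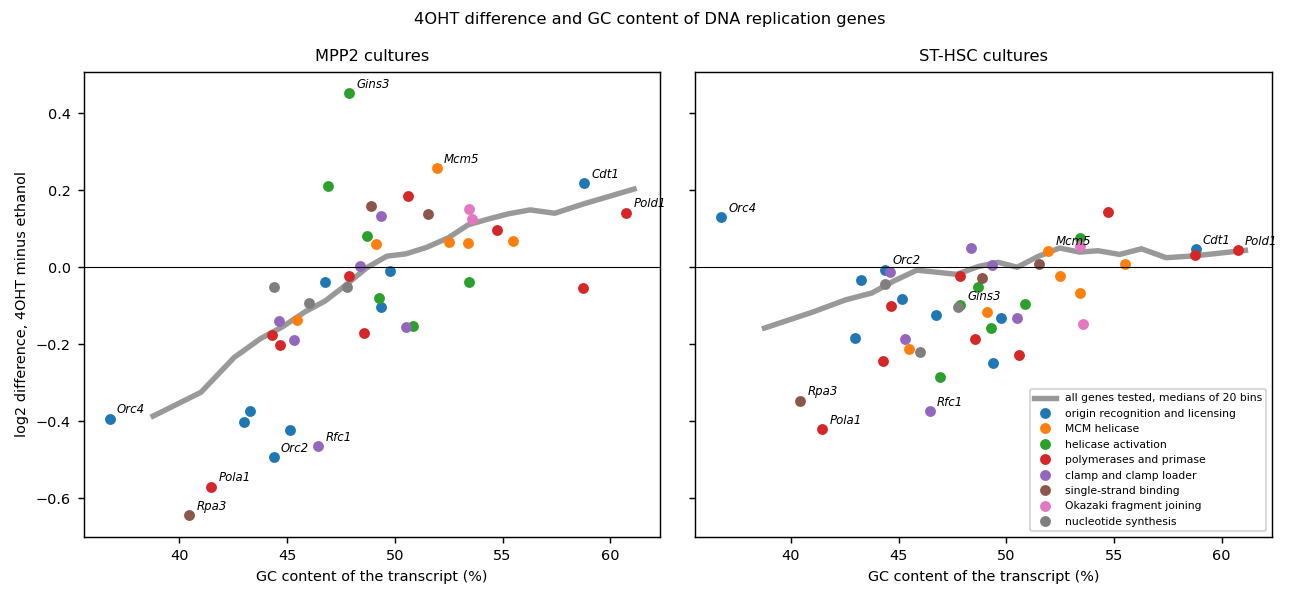
Log2 difference between 4OHT and ethanol against GC content of the transcript for the 44 replication genes, in MPP2 (left) and ST-HSC (right) cultures, coloured by role. The grey line joins the medians of all genes tested in 20 GC bins. In MPP2 cultures Rpa3, Pola1, Orc2 and Rfc1 lie below that line, and Gins3 and Mcm5 above it.

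Licensing factors had other patterns. Cdt1, which brings MCM rings to ORC, had 92.9 normalized counts in MPP2 cultures with 4OHT, 79.8 in MPP2 with EtOH, 109 in ST-HSC with 4OHT and 106 in ST-HSC with EtOH. Both 4OHT libraries lay above their partners (ratio 1.16, interval 1.07 to 1.27, in MPP2, and 1.03, 0.961 to 1.11, in ST-HSC cultures). The log2 differences of Cdt1, 0.22 and 0.05, were 0.04 and 0.01 with the GC trend removed. Cdc6, the ATPase that joins ORC to load the rings, had 51.2 and 55.0 in MPP2 cultures with 4OHT and EtOH, and 71.4 and 84.9 in ST-HSC cultures. Its MPP2 libraries lay 1.39-fold (4OHT) and 1.54-fold (EtOH) below ST-HSC, a shared log2 difference of -0.55 ± 0.13 (SE) with a limma adjusted p of 0.052, over alternatives 0.0021 to 0.092. Gmnn, the inhibitor of Cdt1, had log2 4OHT differences of -0.01 in MPP2 and -0.13 in ST-HSC cultures.

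The 6 MCM genes kept close together and lay below ST-HSC in MPP2 cultures throughout. Mcm5 had 404 normalized counts in MPP2 cultures with 4OHT, 338 in MPP2 with EtOH, 470.2 in ST-HSC with 4OHT and 456 in ST-HSC with EtOH. The EtOH library of MPP2 was lowest, 1.35-fold below its ST-HSC partner, and 4OHT lay above EtOH in MPP2 cultures (ratio 1.20, interval 1.15 to 1.24). Mcm4 had 190.2 and 209 in MPP2 cultures with 4OHT and EtOH, and 222 and 257 in ST-HSC cultures. It was the only MCM gene lower with 4OHT in MPP2 cultures (log2 -0.14), and was also lower in ST-HSC cultures (-0.21). Mcm2, Mcm3, Mcm6 and Mcm7 had 4OHT differences of 0.06 to 0.07 in MPP2 and -0.12 to 0.01 in ST-HSC cultures, and with the GC trend removed the median over 6 genes in MPP2 cultures was -0.03. Their MPP2 minus ST-HSC differences ran from -0.30 to -0.13 with 4OHT and from -0.43 to -0.22 with EtOH over all 6. Mcm7 shares 33.4% of its 31-base words with Gm5487, so its counts are less certain.

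**Figure D4:**
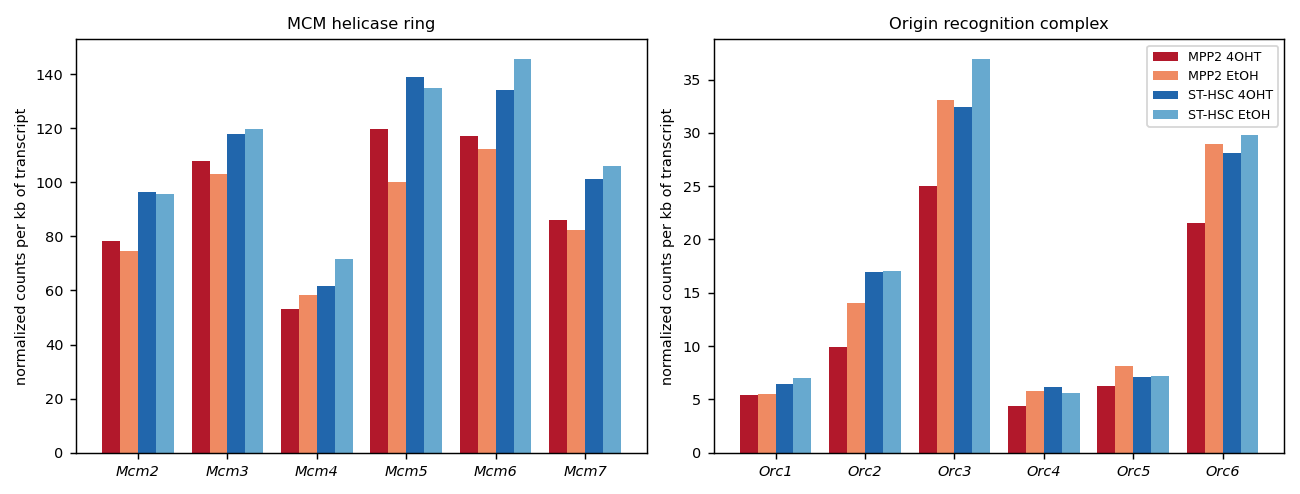
Normalized counts per kilobase of transcript for the MCM ring (left) and ORC (right) in the 4 libraries, as bars from 0. MCM genes lie between 53.0 and 146 and ORC genes between 4.36 and 36.9.

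Per kilobase of the principal annotated transcript, the 6 MCM genes, which form a ring with 1 copy of each, differed from highest to lowest by 2.26-fold in MPP2 cultures with 4OHT, 1.93-fold in MPP2 with EtOH, 2.25-fold in ST-HSC with 4OHT and 2.03-fold in ST-HSC with EtOH. Mcm4 was lowest in each. ORC subunits spread wider, by 5.74-, 5.96-, 5.26- and 6.56-fold in the same order, with Orc3 highest and Orc4 or Orc1 lowest. These are RNA levels per annotated length, and a different main transcript would move them.

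Among 6 genes that start the helicase, Gins2 had the clearest cell-type difference. Gins2, a subunit of the GINS complex (chromosome 8, 120578633 to 120589304, minus strand), had 19.7 normalized counts in MPP2 cultures with 4OHT, 20.3 in MPP2 with EtOH, 33.9 in ST-HSC with 4OHT and 32.1 in ST-HSC with EtOH. Both MPP2 libraries lay below both ST-HSC libraries. The shared MPP2 minus ST-HSC log2 difference was -0.71 ± 0.13 (SE), with a limma adjusted p of 0.033 and an edgeR adjusted p of 0.0028, and 0.0013 to 0.066 over the alternatives. Gins2 shares 66.2% of its 31-base words with Gse1 on the opposite strand, and the strand setting of the counting is not given. Gse1 itself was at 131, 134, 102 and 123 normalized counts, higher in MPP2 than in ST-HSC cultures.

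Gins3, another GINS subunit, had 14.6 normalized counts in MPP2 cultures with 4OHT, 10.5 in MPP2 with EtOH, 10.4 in ST-HSC with 4OHT and 11.2 in ST-HSC with EtOH. The MPP2 4OHT library was the high one (ratio 1.39 to EtOH, interval 1.11 to 1.74). Gins1 had 14.5 and 12.5 in MPP2 cultures with 4OHT and EtOH, and 17.6 and 21.6 in ST-HSC cultures. Its EtOH libraries were 1.73-fold apart and its 4OHT libraries 1.21-fold, with ST-HSC higher. Gins4 had 27.9, 31.1, 33.3 and 35.6 in MPP2 with 4OHT, MPP2 with EtOH, ST-HSC with 4OHT and ST-HSC with EtOH, and both 4OHT differences were small (log2 -0.15 and -0.10). GINS subunits act as 1 complex, but the 4OHT differences of the 4 genes ran from -0.15 to 0.45 in MPP2 and from -0.28 to 0.08 in ST-HSC cultures. Cdc45, which joins GINS and MCM, and Mcm10, which starts the joined helicase, were lower in MPP2 than in ST-HSC cultures (log2 -0.31 and -0.17 with 4OHT, -0.39 and -0.30 with EtOH).

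Among 9 polymerase and primase genes, Pola1 had the largest 4OHT difference. Pola1, the catalytic subunit of polymerase alpha (chromosome X, 93304767 to 93632155, minus strand), had 52.1 normalized counts in MPP2 cultures with 4OHT, 77.6 in MPP2 with EtOH, 58.3 in ST-HSC with 4OHT and 78.2 in ST-HSC with EtOH. Both 4OHT libraries were low and both EtOH libraries high, 1.49-fold apart in MPP2 (ratio 0.671, interval 0.608 to 0.741) and 1.34-fold in ST-HSC cultures (0.746, 0.680 to 0.817). The shared log2 difference was -0.50 ± 0.13 (SE), with a limma adjusted p of 0.22 and an edgeR adjusted p of 0.031. The adjusted p ran from 0.019 to 0.44 over the alternatives. With the GC trend removed the differences were -0.26 and -0.30. Pola2, its accessory subunit, had 48.5 and 45.2 in MPP2 cultures with 4OHT and EtOH, and 60.5 and 54.7 in ST-HSC cultures. Pola2 was higher with 4OHT in both (log2 0.10 and 0.14), but with the GC trend removed its differences were -0.05 and 0.13. Prim1 and Prim2 are the primase subunits bound to Pola1 and Pola2. Their 4OHT differences were -0.18 and -0.02 in MPP2 and -0.24 and -0.02 in ST-HSC cultures.

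Pold2, a regulatory subunit of polymerase delta (chromosome 11, 5872180 to 5878292, minus strand), had 31.7 normalized counts in MPP2 cultures with 4OHT, 32.9 in MPP2 with EtOH, 51.7 in ST-HSC with 4OHT and 50.5 in ST-HSC with EtOH. The cell types did not overlap and treatments were alike within each. Its shared MPP2 minus ST-HSC log2 difference was -0.65 ± 0.13 (SE), with a limma adjusted p of 0.038 and an edgeR adjusted p of 0.0022, and 0.0011 to 0.073 over the alternatives. The other delta subunits differed less between cell types, with Pold1, the catalytic one, at -0.18 and -0.28 and Pold3 at -0.17 and -0.19 (4OHT and EtOH). Pole2, a subunit of polymerase epsilon, had 12.0 and 13.9 in MPP2 cultures with 4OHT and EtOH, and 18.3 and 19.6 in ST-HSC cultures, so MPP2 was lower under both (shared log2 -0.53 ± 0.13, limma adjusted p 0.054, edgeR 0.028, over alternatives 0.018 to 0.32). Pole, the catalytic subunit, had 78.7, 69.1, 68.1 and 79.8 in the 4 groups as first listed, with opposite 4OHT signs.

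Clamp loading genes (6) were led by Rfc1, the largest subunit of replication factor C (chromosome 5, 65261850 to 65335670, minus strand). Rfc1 had 63.1 normalized counts in MPP2 cultures with 4OHT, 87.4 in MPP2 with EtOH, 70.6 in ST-HSC with 4OHT and 91.7 in ST-HSC with EtOH. Both 4OHT libraries lay below both EtOH libraries (ratio 0.723, interval 0.660 to 0.791, in MPP2, and 0.770, 0.708 to 0.837, in ST-HSC cultures). The shared log2 difference was -0.42 ± 0.13 (SE), with a limma adjusted p of 0.26 and an edgeR adjusted p of 0.055, and 0.041 to 0.43 over the alternatives. With the GC trend removed the differences were -0.38 and -0.34, close to those before. Rfc5, a small subunit, had 58.1, 52.9, 70.4 and 70.1 in MPP2 with 4OHT, MPP2 with EtOH, ST-HSC with 4OHT and ST-HSC with EtOH, with ST-HSC higher. The small subunits Rfc2, Rfc3 and Rfc4 had 4OHT differences from -0.15 to 0.00 in MPP2 and from -0.13 to 0.05 in ST-HSC cultures. Pcna had -0.19 in both, and shares 23.3% of its 31-base words with the pseudogene Pcna-ps2.

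Single-strand DNA is coated by RPA, of 3 subunits. Rpa3, the smallest (chromosome 6, 8255936 to 8259173, minus strand), had 15.3 normalized counts in MPP2 cultures with 4OHT, 24.2 in MPP2 with EtOH, 22.2 in ST-HSC with 4OHT and 28.4 in ST-HSC with EtOH. In each cell type 4OHT was lower (1.58-fold, ratio 0.632, interval 0.526 to 0.757, in MPP2, and 1.28-fold, 0.783, 0.673 to 0.910, in ST-HSC cultures). The shared log2 difference was -0.50 ± 0.14 (SE), with a limma adjusted p of 0.24 and an edgeR adjusted p of 0.093, and 0.072 to 0.84 over the alternatives. With the GC trend removed the differences were -0.33 in MPP2 and -0.22 in ST-HSC cultures, and Rpa3 no longer passed 1.5-fold. Rpa2 had 57.9, 52.6, 73.9 and 73.4 in MPP2 with 4OHT, MPP2 with EtOH, ST-HSC with 4OHT and ST-HSC with EtOH, and Rpa1, the large subunit, 175, 157, 199 and 203. Neither was lower with 4OHT in MPP2 cultures (log2 0.14 and 0.16), unlike Rpa3.

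Joining of lagging-strand pieces uses Fen1, which trims flaps, and Lig1, which seals nicks. Fen1 had 147 and 132 normalized counts in MPP2 cultures with 4OHT and EtOH, and 192 and 185 in ST-HSC cultures, so cell types did not overlap (log2 -0.39 with 4OHT, -0.48 with EtOH). As 79.6% of its 31-base words occur in another gene, its counts are uncertain. Lig1 had 129.6 and 118.8 in MPP2 cultures with 4OHT and EtOH, and 119.7 and 132.7 in ST-HSC cultures, with no clear order of groups.

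None of the 3 nucleotide synthesis genes was called by limma or edgeR in either comparison. Rrm2, the regulatory subunit of ribonucleotide reductase, had 453 normalized counts in MPP2 cultures with 4OHT, 484 in MPP2 with EtOH, 478 in ST-HSC with 4OHT and 557 in ST-HSC with EtOH. ST-HSC with EtOH was highest, and 4OHT lay below EtOH in both cell types (log2 -0.09 and -0.22). Rrm1, its large subunit, had 357 and 370 in MPP2 cultures with 4OHT and EtOH, and 415 and 428 in ST-HSC cultures, with both MPP2 libraries lower. Tyms, thymidylate synthase, had 109, 113, 98.7 and 106 in the 4 groups as first listed.

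**Figure D5:**
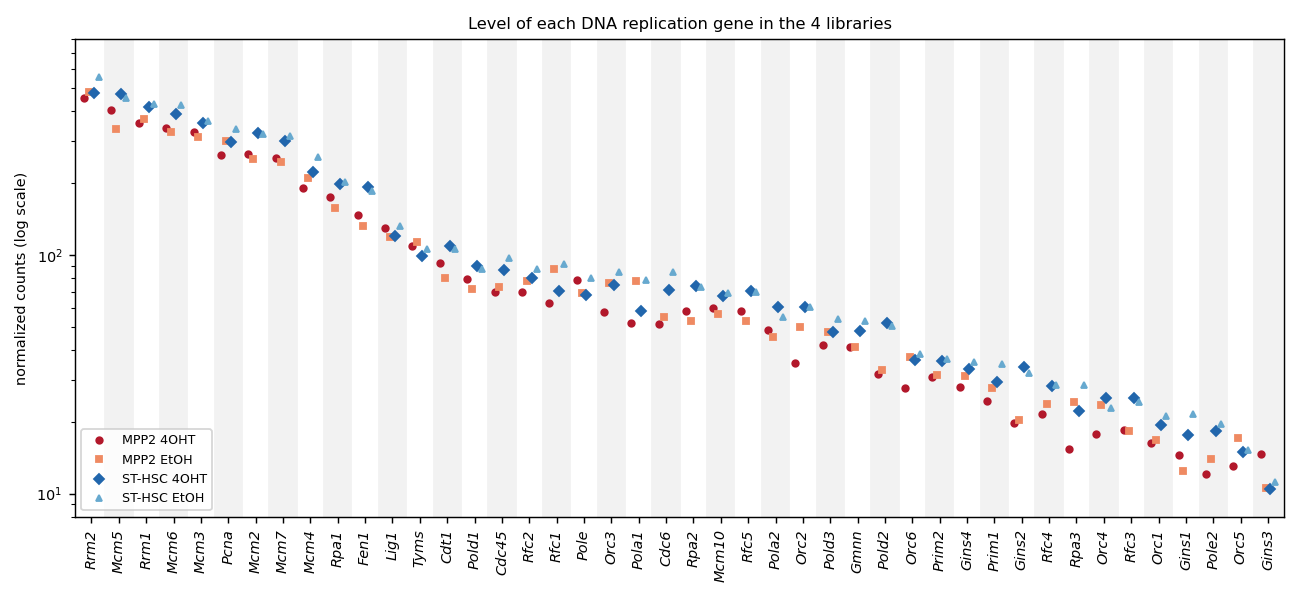
Normalized counts of each replication gene in the 4 libraries, on a log scale. Blue ST-HSC symbols lie above red MPP2 symbols for most genes, and the order of genes along the axis depends on transcript length, so it compares no genes with each other.

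A wider list of 77 replication and nucleotide supply genes, none of them members, lay near the members. Its median MPP2 minus ST-HSC log2 differences were -0.21 with 4OHT and -0.20 with EtOH, and its median 4OHT differences -0.07 in MPP2 and -0.12 in ST-HSC cultures. limma called 6 of 77 lower (5.31% of all genes) and 1 higher (Rb1, 9.88%) in MPP2 cultures. edgeR called 20 lower (14.0%) and 3 higher (16.5%). For 4OHT limma called 0 and edgeR 3 lower (1.86% of all genes) and 0 higher (2.47%). Those 3 were Atad5, the unloader of Pcna, Esco2, which acetylates cohesin, and Rb1, the retinoblastoma protein that restrains E2F. Atad5 had 32.4 and 47.9 normalized counts in MPP2 cultures with 4OHT and EtOH, and 37.9 and 58.5 in ST-HSC cultures (shared log2 -0.59 ± 0.13, limma adjusted p 0.16, edgeR 0.015, over alternatives 0.0098 to 0.34). Both 4OHT libraries were below both EtOH libraries, and with the GC trend removed the differences were -0.33 in MPP2 and -0.53 in ST-HSC cultures.

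Esco2 had 23.7, 32.3, 20.8 and 33.0 normalized counts in MPP2 with 4OHT, MPP2 with EtOH, ST-HSC with 4OHT and ST-HSC with EtOH. Its 4OHT differences of -0.44 in MPP2 and -0.66 in ST-HSC cultures were -0.04 and -0.49 with the GC trend removed, and its adjusted p (edgeR 0.044) ran from 0.032 to 0.60 over the alternatives. Rb1 had 61.5, 92.9, 42.8 and 58.0 in the same order and was higher in MPP2 than in ST-HSC cultures (shared log2 0.60, limma adjusted p 0.046, over alternatives 0.0013 to 0.083). Its 4OHT differences of -0.59 in MPP2 and -0.44 in ST-HSC cultures were -0.28 and -0.31 with the GC trend removed, and the adjusted p (edgeR 0.027) ran from 0.016 to 0.42. Hells, a chromatin remodeller, had 34.4, 53.6, 59.6 and 73.1. Highest in the 4OHT difference was Samhd1, which breaks down deoxynucleotides, with 174, 134, 143 and 116 in the same order (log2 0.37 in MPP2, 0.30 in ST-HSC cultures). Pole3 had 7.46, 6.57, 10.6 and 8.62 (0.17 and 0.28), Ddb1 576, 500.0, 671 and 641 (0.20 and 0.07), and the maintenance methyltransferase Dnmt1 552, 459, 486 and 486 (0.27 and 0.00). None of these 4 was called by limma or edgeR for 4OHT. Of 10 nucleotide supply genes limma called 4 lower in MPP2 cultures (5.31% of all genes), namely Umps, Shmt1, Dut and Cad, which were named after their values were seen. Each lost its call under at least 1 alternative, with adjusted p of up to 0.064, 0.080, 0.081 and 0.089.

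Markers of other cells moved with both comparisons. Erythroid markers (10 measured genes, of which 8 passed the filter) summed to 11.1 normalized counts in MPP2 cultures with 4OHT, 144 in MPP2 with EtOH, 1.37 in ST-HSC with 4OHT and 1.11 in ST-HSC with EtOH, with Hba-a2 and Slc4a1 at 0 outside MPP2 with EtOH, and Hbb-b1 at 0 in both ST-HSC libraries. Mast cell and basophil markers (12 of 13) summed to 677, 1890, 181 and 241, and monocyte and macrophage markers (14 of 14) to 6676, 4594, 4477 and 3091. In MPP2 against ST-HSC cultures all 8 erythroid markers tested were higher with EtOH, as were 12 of 12 mast cell and basophil markers and 7 of 11 neutrophil markers. With 4OHT 11 of 12 mast cell and basophil markers were lower in MPP2 cultures and 10 in ST-HSC cultures, and 12 and 13 of 14 monocyte and macrophage markers were higher. Their part in the replication gene differences was not tested.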

How the data were processed

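One table was used, in which 14323 gene symbols have 4 columns, 1 per library, in the authors' deposited normalized signal. All 57292 values lay within 1e-06 reads of a whole multiple of 1 step per column, so whole reads were recovered. Per the labels' protocols, 200 ng of total RNA was depleted of rRNA and made into directional libraries. The mm10 build, RSEM, edgeR, Bowtie2 and Trimmomatic 0.36 are named per the submitters' processing notes, with roles, gene annotation and strand setting not given in the sources used here. Genes with a mean of at least 1 were kept (11370), and log2 was taken after adding 0.5, which understates differences of low genes. limma 3.58.1 was fitted on an additive model with 3 coefficients and 1 residual degree of freedom, with Benjamini-Hochberg adjustment and a threshold of 0.05. On simulated data limma recovered few 1.5-fold changes (3%) and, at larger folds, made more false calls than that threshold implies. edgeR recovered more at 1.5-fold (44%) but fewer at 2-fold (93.5% against 98%), and kept false calls under the threshold. The simulated reads had 1 dispersion for all genes (0.0097), no difference between cell types and no GC trend. These rates may therefore not hold for the real libraries. p-values and SE rest on 1 residual per gene, the disagreement between the cell types in the 4OHT difference. limma moderates it toward a value pooled over genes. A 4OHT difference particular to 1 cell type thus enters the error. Spread between repeat cultures or mice is not measured, since the labels name no separate cultures or mice. Ratios carry exact conditional binomial 95% intervals on recovered reads. These cover counting error only, since no molecular identifiers are known. Coordinates, GC content and shared 31-base words came from the GENCODE annotation of GRCm38, the assembly of mm10, and promoters from RefSeq (GRCm38.p6). Where a gene has several RefSeq starts, the nearest to the principal transcript's start was used.

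Genes, gene lists and the naming rule were chosen with earlier results of these data known. Values in every library are given for the genes with the highest and lowest mean 4OHT difference of each role, the 6 largest 4OHT differences, the 4 largest differences between cell types in the 4OHT difference and the 4 largest MPP2 minus ST-HSC differences (24 genes in all), and, of other replication genes, for the 4 highest and 4 lowest in the 4OHT difference. Alternatives were pseudocounts of 1 and 0.1, no filter, a mean of at least 5, DESeq2 size factors, RPM from recovered reads, removal of the GC trend in 20 bins, limma with trend and robust options, edgeR 4.0.16 quasi-likelihood and DESeq2 1.42.0 on recovered reads. R 4.3.3 and Python 3.11.15 were used, the second with matplotlib 3.10.9, scipy 1.17.1, pandas 2.3.3 and numpy 2.4.6. Apart from the erythroid markers summed, 1 other is not reported here.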

Additional observations from a re-analysis of the deposited data

Results flagged for a closer look

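Pole and Lig1 were flagged because the 4OHT differences of MPP2 and ST-HSC cultures had opposite signs and both counting intervals left out a ratio of 1. Opposite signs alone were found in 12 of 44 replication genes and in 38.1% of all genes tested. The share of all genes that meets the full rule was not counted. For Pole the log2 difference was 0.19 in MPP2 and -0.23 in ST-HSC cultures, 0.41 apart, with ratios of 1.14 (interval 1.04 to 1.25) and 0.853 (0.782 to 0.931). For Lig1 it was 0.13 in MPP2 and -0.15 in ST-HSC cultures, 0.27 apart, with ratios of 1.09 (1.02 to 1.17) and 0.902 (0.844 to 0.964). The difference between the cell types was not tested, since 1 library a group leaves no residual for it.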

How the results depend on the processing

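For the shared 4OHT difference, genes called lower (1) numbered 19 with a pseudocount of 1, 68 with a mean of at least 5, 220 with limma trend and robust options, 211 with edgeR and 41 with DESeq2, and 0 with a pseudocount of 0.1, no filter, DESeq2 size factors, RPM or the GC trend removed. Genes called higher (5) numbered 73, 162, 303, 281, 117 and 0 in the same order. Replication genes called lower (0) were 2 with limma trend and robust options and 1 with edgeR. For MPP2 minus ST-HSC, genes called lower (604) numbered 964 with a pseudocount of 1, 178 with 0.1, 69 with no filter, 1395 with a mean of at least 5, 394 with DESeq2 size factors, 215 with the GC trend removed, 1841 with limma trend and robust options and 1589 with edgeR. Genes called higher (1123) numbered 674 with a pseudocount of 0.1, 490 with no filter, 1815 with limma trend and robust options and 1873 with edgeR. Replication genes called lower (2) were 4, 0, 0, 9, 0, 14 and 11 with a pseudocount of 1, 0.1, no filter, a mean of at least 5, the GC trend removed, limma trend and robust options, and edgeR. In those that gave 0, Gins2 had an adjusted p of 0.054, 0.066 and 0.051, and Pold2 of 0.058, 0.073 and 0.052. Gins2 also had 0.051 with DESeq2. The median 4OHT difference of the 44 genes was -0.11 in MPP2 and -0.068 in ST-HSC cultures in RPM, and -0.074 in ST-HSC cultures with the GC trend removed. The MPP2 minus ST-HSC median with 4OHT was -0.31 in RPM and -0.20 with the GC trend removed, and with EtOH -0.26 under DESeq2 size factors. Counts past 1.5-fold became 2 (RPM) and 0 (GC trend removed) for 4OHT in MPP2 cultures, 5 (RPM) for MPP2 minus ST-HSC with 4OHT, and 2 (GC trend removed) with EtOH. The shared 4OHT sign turned with the GC trend removed for Rrm1 (0.049), Orc4 (0.15), Gins1 (0.024) and Gins2 (-0.058), for Gins2 in RPM (-0.0021) and for Pold2 in DESeq2 (0.00044), and the MPP2 minus ST-HSC sign of Lig1 in DESeq2 (0.0089). A higher filter leaves fewer genes to adjust over, and the cause of the other moves was not tested. No paired analysis was possible because the labels carry no replicate numbers and each group has 1 library. Leaving out a library of the additive model leaves no residual, and the value is then the difference within the remaining pair. Depth limits genes at about 10 to 20 normalized counts, such as Gins3 and Orc5, whose intervals are wide.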

Other observations

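Dividing cells were also read through a list of 20 mitosis genes, whose median log2 differences were -0.11 (4OHT minus EtOH in MPP2), -0.10 (the same in ST-HSC), -0.12 (MPP2 minus ST-HSC with 4OHT) and -0.13 (with EtOH). Mki67, a mark of cycling cells, had 558 normalized counts in MPP2 cultures with 4OHT, 629 in MPP2 with EtOH, 317 in ST-HSC with 4OHT and 593 in ST-HSC with EtOH. The ST-HSC library with 4OHT was thus the low one, 1.87-fold below EtOH, while the median replication gene there differed by -0.09 on the log2 scale.

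E2f2, a transcription factor of cell-cycle entry picked after its values were seen, had 220 normalized counts in MPP2 cultures with 4OHT, 203 in MPP2 with EtOH, 108 in ST-HSC with 4OHT and 146 in ST-HSC with EtOH. Both MPP2 libraries lay above both ST-HSC libraries, the opposite order to most replication genes. The 15 E2F and pocket protein genes together had median differences of only 0.06 with 4OHT and 0.02 with EtOH. edgeR called 3 of the 15 lower (14.0% of all genes) and 3 higher (16.5%). For E2f2 the shared MPP2 minus ST-HSC log2 difference was 0.75 ± 0.18 (SE). Its limma adjusted p was 0.052 and its edgeR adjusted p 0.0019, and 0.00016 to 0.091 over the alternatives.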
